A study of Homo sapiens with 3 samples.

Results

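Long non-coding RNAs that act in the nucleus or are linked to cancer were followed in PC3 cells with and without knockdown of USP16. The set held 9 genes of the 60930 entries of the deposited expression table, namely MALAT1, NEAT1, PVT1, MIR17HG, MIR22HG, TUG1, NORAD, CYTOR and LINC-PINT. They were chosen by symbol, and each symbol matched a single entry. Levels are given in TPM, in which reads per gene are divided by gene length and scaled to the same sum in each library. A mean of 1 TPM or more, the minimum for being tested, was reached by 7 of the 9 genes and by 13637 names in all. PC3 is an androgen-independent prostate cancer cell line, and the study asked how USP16, a ubiquitin-specific protease, bears on c-Myc in such cells. RNA-seq covered 3 libraries, 1 of PC3 cells carrying the vector control (shCON) and 1 for each of 2 short hairpin RNAs against USP16 (shUSP16#1 and shUSP16#2). The hairpins came from a lentiviral vector in cells selected with puromycin, and all 3 libraries were made from total RNA of the same cell line. No condition had a second library, so no difference has a replicate check, and no error or test can be given. Both hairpins are compared with the same shCON library. TPM keeps no depth, so the precision of single values is unknown. In bulk RNA, fewer cells making an RNA and less of it per cell cannot be told apart.

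The libraries matched their labels in the targeted gene. USP16 fell from 19.9 TPM to 3.5 TPM with shUSP16#1 and to 1.08 TPM with shUSP16#2, which is 17.6% and 5.42% of the control. The epithelial genes KRT8, KRT18 and EPCAM were at 748, 947 and 273.5 TPM in shCON. Of the androgen axis, KLK3 and KLK2 were listed at 0 throughout. Of the markers of other cells, CHGA did not pass 0.02 TPM and PTPRC did not pass 0.14 TPM, while in shCON, shUSP16#1 and shUSP16#2 PECAM1 was at 0.14, 0.72 and 1.28 TPM, COL1A1 at 4.19, 10.7 and 4.78 TPM and CD68 at 42.2, 34.15 and 31.7 TPM. The part of these markers in the results was not tested. Genes under 200 bases held 1.31% of all TPM in the control, 0.61% with shUSP16#1 and 5.91% with shUSP16#2.

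Long non-coding RNAs are transcribed and often spliced like mRNAs but act as RNA. MALAT1 collects in nuclear speckles, which store splicing factors, and NEAT1 is the scaffold on which paraspeckles assemble. Both end in a triple helix made after cleavage by RNase P rather than in a conventional poly(A) tail, except for the short NEAT1 isoform. TUG1 is found in the nucleus and the cytoplasm. NORAD is cytoplasmic and binds Pumilio proteins, repressors of mRNAs. CYTOR, also known as LINC00152, is raised in many tumours. PVT1 is the neighbour of MYC and is often amplified with it. MIR17HG, a MYC target, is the host of the miR-17-92 cluster, and MIR22HG is the host of miR-22. LINC-PINT is a p53-induced RNA, and PC3 cells lack p53.

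The miRNAs show what the host genes carry. MIR17HG (ENSG00000215417) lies on the forward strand at chr13:91347820-91354579 of GRCh38 in GENCODE release 29, and its 6 miRNA hairpins fall within 787 bases. They lie in an exon of 2 of its 3 annotated transcripts and in an intron of the other. MIR22HG (ENSG00000186594) lies on the reverse strand at chr17:1711493-1717174, and miR-22 is exonic in all 19 of its transcripts. The mature sequences are given 5′ to 3′ from RefSeq (GRCh38.p14), with the seed (bases 2 to 8) in capitals.
hsa-miR-17-5p: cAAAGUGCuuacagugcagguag
hsa-miR-20a-5p: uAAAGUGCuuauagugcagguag
hsa-miR-18a-5p: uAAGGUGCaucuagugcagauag
hsa-miR-19a-3p: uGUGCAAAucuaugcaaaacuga
hsa-miR-19b-3p: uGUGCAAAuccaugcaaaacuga
hsa-miR-92a-3p: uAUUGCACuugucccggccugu
hsa-miR-22-3p: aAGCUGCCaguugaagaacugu
The 6 miRNAs of the cluster hold 4 different seeds. miR-17-5p and miR-20a-5p share 1 seed, and miR-19a-3p and miR-19b-3p share another. All 7 hairpin genes (MIR17, MIR18A, MIR19A, MIR20A, MIR19B1, MIR92A1 and MIR22) were listed at 0 TPM in every library, so the mature miRNAs were not measured and only the host transcripts can be followed.

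NORAD (ENSG00000260032) is a single unspliced exon of 5339 bases on the reverse strand, at chr20:36045622-36050960. It is known for its Pumilio elements, and these are shown because NORAD was among the members that differed most from shCON. The element was searched as TGTANATA in the sense strand of the longest transcript of each gene. NORAD held 15 matches, or 2.81 per kb. Among the 13296 transcripts of tested genes with a GENCODE entry, 29.5% held a match and the average was 0.123 per kb. Only LNPEP, with 17 matches in 12752 bases, held more than NORAD. Among the 2956 other transcripts within 1.25 times of its length the median was 0 and the highest was 9. Of the 15 matches, 10 read UGUAUAUA, 4 read UGUAAAUA and 1 read UGUACAUA. A pair of neighbouring elements, 9 bases apart from start to start, and a single one are printed below with the 8 bases of the element in capitals.
NORAD site 4 (chr20:36049512-36049519): uuacuuaucugUGUAUAUAguguacauaaa
NORAD site 5 (chr20:36049503-36049510): uguguauauagUGUACAUAaaggacagacg
NORAD site 15 (chr20:36046355-36046362): auuagccuauuUGUAAAUAccuuuguuaua
NEAT1 held 6 matches, TUG1 2 and MIR17HG 2. MALAT1, PVT1, MIR22HG, CYTOR and LINC-PINT held none. For NEAT1, whose longest transcript has 22743 bases, 8.57% of the 35 other transcripts of like length held as many.

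**Figure D1:**
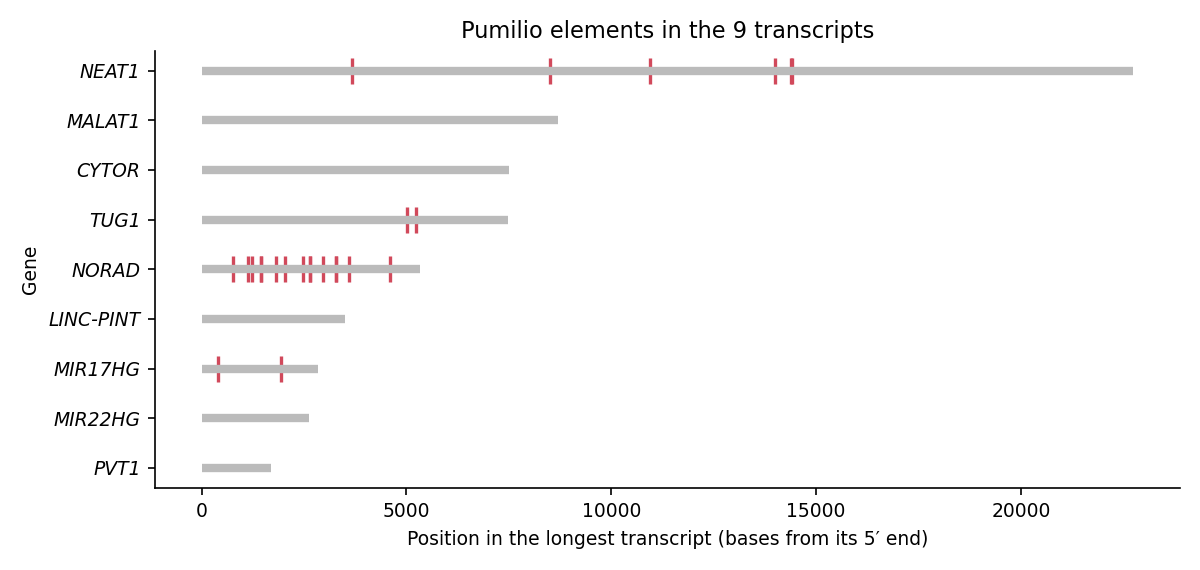
Positions of the Pumilio element TGTANATA along the longest GENCODE transcript of each of the 9 genes, with position in bases from the 5′ end on the horizontal axis; grey bars are transcripts and red ticks are matches. The 15 matches of NORAD run from base 761 to base 4606 of 5339, and some neighbouring ticks merge at this scale, while 5 of the genes have no tick.

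Promoter sequence is shown for NORAD, TUG1 and MALAT1, the members called lower with shUSP16#2 below. The windows run from 250 bases before to 50 after a RefSeq start (GRCh38.p14) and were searched on both strands for CACGTG, the palindromic E-box bound by MYC and other helix-loop-helix factors, which is in capitals.
NORAD (reverse strand, chr20:36050911-36051210): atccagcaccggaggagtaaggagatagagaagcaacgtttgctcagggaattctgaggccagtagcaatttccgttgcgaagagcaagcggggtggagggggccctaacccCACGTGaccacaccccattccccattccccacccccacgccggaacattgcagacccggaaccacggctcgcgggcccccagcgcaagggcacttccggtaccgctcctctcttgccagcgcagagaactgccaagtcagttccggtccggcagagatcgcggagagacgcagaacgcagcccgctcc
TUG1 (forward strand, chr22:30969015-30969314): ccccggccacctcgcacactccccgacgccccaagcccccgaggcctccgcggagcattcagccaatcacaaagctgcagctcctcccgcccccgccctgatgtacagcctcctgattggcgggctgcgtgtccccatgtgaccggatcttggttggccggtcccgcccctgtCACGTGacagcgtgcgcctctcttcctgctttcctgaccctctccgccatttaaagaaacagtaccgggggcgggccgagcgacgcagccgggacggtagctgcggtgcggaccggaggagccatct
MALAT1 (forward strand, chr11:65498795-65499094): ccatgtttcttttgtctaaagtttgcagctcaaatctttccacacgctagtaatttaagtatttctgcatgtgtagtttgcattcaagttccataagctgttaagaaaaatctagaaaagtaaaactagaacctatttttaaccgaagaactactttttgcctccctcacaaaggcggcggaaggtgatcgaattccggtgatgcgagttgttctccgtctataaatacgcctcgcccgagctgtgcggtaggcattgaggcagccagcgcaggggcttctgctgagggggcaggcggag
The match of NORAD starts 138 bases before its start site and that of TUG1 77 bases before. Neither the MALAT1 window above nor the window of its other RefSeq start held these letters. Among 35116 promoters of this length, 7.26% held CACGTG. The windows of CYTOR, MIR17HG and MIR22HG held no match. Of the 4 windows named LINC-PINT, only that at chr7:130913261-130913560 held a match, and it lies outside the LINC-PINT gene followed here. NEAT1 and PVT1 were not searched. A match in a window is a description of the letters and not of binding.

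The hairpins themselves were compared with the members. Neither 21-base target occurs in the longest transcript of any of the 9 genes. The antisense strands of the study's hairpins are printed 5′ to 3′ with bases 2 to 8 in capitals.
shUSP16#1: aTAAACATgatttcttctggc
shUSP16#2: aAATCTTGtggaatatcaccg
The site complementary to these 7 bases, ATGTTTA for shUSP16#1, occurs 2 times each in NORAD, MALAT1 and NEAT1, once each in TUG1, CYTOR, MIR22HG and LINC-PINT, and not in PVT1 or MIR17HG. Of other tested transcripts within 1.25 times of their lengths, 38.7% held it for NORAD, 59.2% for MALAT1, 51.2% for TUG1 and 74.3% for NEAT1. The site for shUSP16#2, CAAGATT, occurs once each in NEAT1, CYTOR and LINC-PINT and in none of the other members. Of transcripts of like length, 82.9% held it for NEAT1, 41.9% for CYTOR and 22.0% for LINC-PINT. For MALAT1, TUG1 and NORAD, which lack it, the shares were 48.3%, 41.9% and 32.4%.

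The levels of the members in shCON spanned more than 2 orders of magnitude on the TPM scale, which is per length and allows genes to be compared. CYTOR was highest at 125 TPM and NORAD followed at 116 TPM. PVT1 was at 66.9 TPM and TUG1 at 33.95 TPM. These are abundant for the class, since by mean TPM CYTOR ranked 16 and NORAD 26 among the 14855 annotated long non-coding RNA names, of which 1177 reached a mean of 1 TPM. NEAT1 was at 20.2 TPM, MALAT1 at 16.6 TPM and MIR22HG at 6.21 TPM in shCON. MALAT1, often among the most abundant RNAs of a cell, ranked 170 here. It lacks a conventional poly(A) tail, and whether poly(A) RNA was selected is not given. The part of this in its rank was not tested. MIR17HG was at 0.99 TPM and LINC-PINT at 0.45 TPM, and neither reached the mean of 1 TPM. Together the 9 genes held 386 TPM in the control, 262 TPM with shUSP16#1 and 249 TPM with shUSP16#2, at most 0.0386% of a library.

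**Figure D2:**
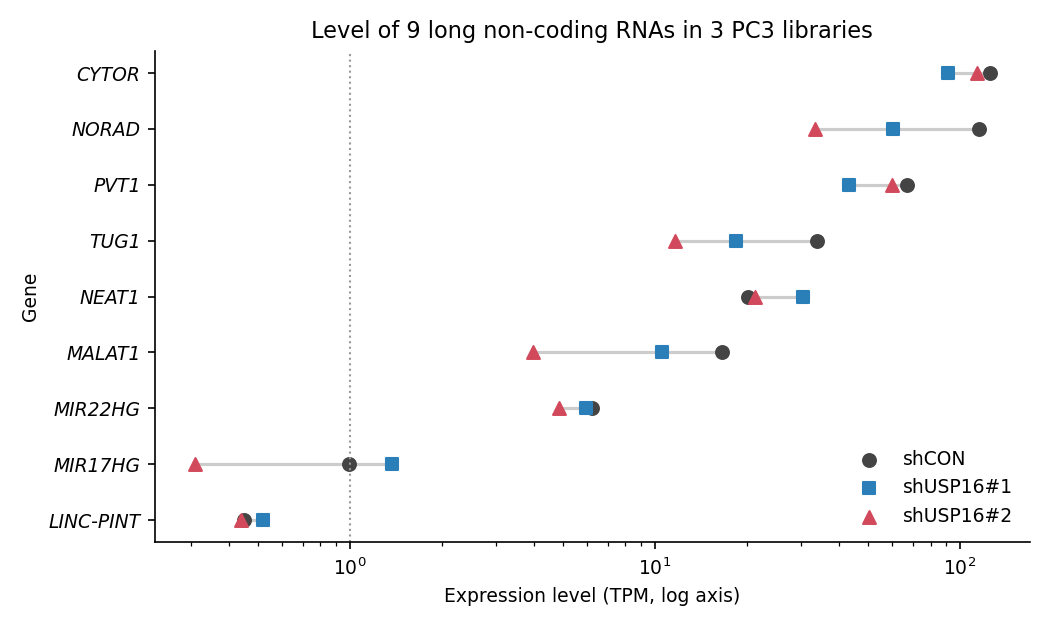
Level of each of the 9 RNAs in TPM, on a log axis, with 1 point per library (circle, shCON; square, shUSP16#1; triangle, shUSP16#2); grey lines join the lowest and highest library and the dotted line marks 1 TPM. NORAD ran from 116 TPM in shCON down to 33.4 TPM under shUSP16#2 and MALAT1 from 16.6 down to 3.99 TPM, while CYTOR stayed between 91.5 and 125 TPM.

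The order of the levels differed between libraries. In shCON it ran CYTOR, NORAD, PVT1, TUG1, NEAT1, MALAT1 and MIR22HG. Under shUSP16#2 it ran CYTOR, PVT1, NORAD, NEAT1, TUG1, MIR22HG and MALAT1. Without replicates it cannot be said which neighbours in these orders differ.

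The difference in log2(TPM + 1) between a hairpin library and shCON is given below as the log2 fold change. Adding 1 makes the changes of weakly expressed genes look smaller than they are. A gene was called when it passed 2-fold, which is 1 on this scale. Among the 7 members at a mean of at least 1 TPM, 3 were called lower under shUSP16#2, namely MALAT1, TUG1 and NORAD, where 19.5% of all tested genes and 12.2% of the 1177 tested long non-coding RNA genes were called. None was called lower under shUSP16#1, where the shares were 5.79% and 5.78%, so none was called lower under both hairpins, against 4.6% and 3.57%. None was called higher under shUSP16#1 (2.84% and 6.63%), under shUSP16#2 (2.8% and 4.84%) or under both (1.14% and 2.12%). Below the 2-fold threshold, 6 of the 7 had lower values under both hairpins than in shCON, as had 57.2% of all tested genes and 41.0% of tested long non-coding RNA genes. The exception was NEAT1. The median log2 fold change of the 7 was -0.60 under shUSP16#1 and -0.30 under shUSP16#2, beside -0.17 and -0.37 for all tested genes and 0.04 and -0.22 for long non-coding RNA genes.

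**Figure D3:**
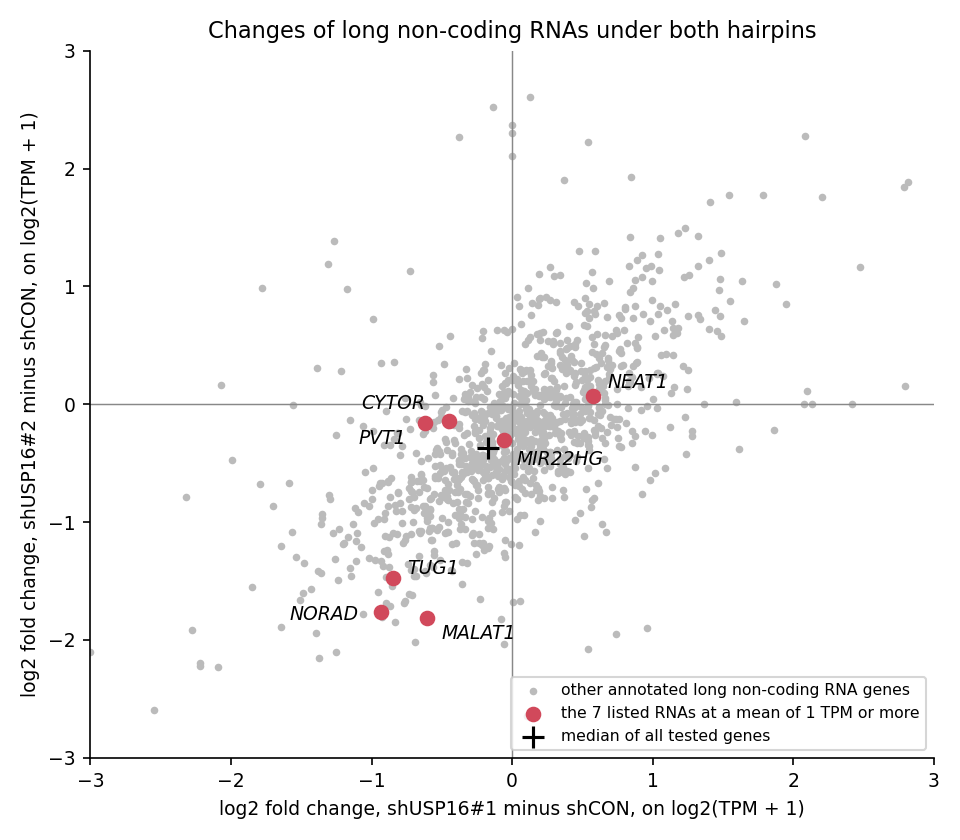
Log2 fold change against shCON on the log2(TPM + 1) scale, under shUSP16#1 (horizontal) and shUSP16#2 (vertical), for the 7 members at a mean of at least 1 TPM (red) and the other tested long non-coding RNA genes (grey; 11 lie outside the axes); the cross is the median of all tested genes at -0.17 and -0.37. MALAT1, TUG1 and NORAD have values of -1.47 to -1.82 under shUSP16#2. Under shUSP16#1 theirs are -0.60 to -0.93, where PVT1 has -0.62. NEAT1 lies at 0.58 and 0.07.

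NORAD differed most from shCON by the mean of both hairpins. Its level of 116 TPM in the control compared with 60.1 TPM for shUSP16#1 and 33.4 TPM for shUSP16#2. This is 52.0% and 28.9% of the control, with log2 fold changes of -0.93 and -1.76. These values lay at percentiles 7.83 and 2.19 of all tested genes and at 6.8 and 2.29 of long non-coding RNA genes. The tested genes within 250 kb of NORAD numbered 5 and had medians of 0.19 and 0.00. CNBD2, the nearest, was at 6.61, 7.66 and 3.57 TPM, and EPB41L1, a cytoskeletal adaptor gene, was at 18.65, 26.6 and 20.7 TPM. Of the 50-base words of NORAD, 30.3% also occur in transcripts of other genes, 22.7% in OVCH1-AS1, so its reads could have been divided among copies. OVCH1-AS1 itself was at no more than 0.47 TPM in any library.

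TUG1 (ENSG00000253352, chr22:30969245-30979395, forward strand) is a spliced RNA transcribed away from the MORC2 promoter, and its longest transcript has 7469 bases in 3 exons. The control held 33.95 TPM of it, the shUSP16#1 library 18.4 TPM and the shUSP16#2 library 11.6 TPM. The log2 fold changes were -0.85 and -1.47, at percentiles 10.5 and 5.78 of all tested genes. MORC2, a chromatin-silencing ATPase gene that starts 0.947 kb away, was at 10.9, 9.46 and 8.03 TPM, log2 fold changes of -0.19 and -0.40. The 9 tested genes within 250 kb had medians of 0.06 and -0.19, and none was called lower, where 19.5% of all tested genes were called under shUSP16#2. One of these 9 is AC004542.5, a conserved short segment annotated within TUG1, which was listed at 0 in shCON and under shUSP16#1 and was at 9.02 TPM under shUSP16#2, the library with the highest share of short RNA.

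MALAT1 (ENSG00000251562) and NEAT1 (ENSG00000245532) lie on the forward strand of chromosome 11, at chr11:65497688-65506516 and chr11:65422774-65445540, 52.1 kb apart. The longest transcript of each is a single exon. MALAT1 stood at 16.6 TPM in the control, at 10.6 TPM with shUSP16#1 and at 3.99 TPM with shUSP16#2. The log2 fold changes were -0.60 and -1.82, at percentiles 22.1 and 1.76 of all tested genes. The hairpin libraries differed from each other by -1.21 for MALAT1, at percentile 1.96 of all tested genes, whose median was -0.21. NEAT1 stood at 20.2 TPM in the control, at 30.6 TPM with shUSP16#1 and at 21.3 TPM with shUSP16#2, so the first hairpin library stood above the others. Its log2 fold changes were 0.58 and 0.07, at percentiles 91.1 and 74.3. The ratio of MALAT1 to NEAT1 was 0.821 in the control, 0.346 with shUSP16#1 and 0.188 with shUSP16#2.

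The neighbours of this pair did not show the decrease of MALAT1 as a group. Within 250 kb of MALAT1 there were 22 tested genes with medians of 0.15 and 0.05, of which 11 had higher and 5 lower values under both hairpins, and 2 of them, AP000769.1 and CDC42EP2, were called lower under shUSP16#2. Of all tested genes 57.2% had lower values under both hairpins and 19.5% were called lower under shUSP16#2. The share with higher values under both was not computed. The pseudogene AP000769.1 lies between MALAT1 and NEAT1 and was at 19.05, 36.7 and 6.48 TPM, and CDC42EP2 was at 19.8, 10.4 and 9.42 TPM. FRMD8, the nearest protein-coding gene of NEAT1 at 9.25 kb, was at 17.7, 28.6 and 19.02 TPM, with log2 fold changes of 0.66 and 0.10. A short segment annotated within NEAT1, AP000944.4, was listed at 0 in shCON and under shUSP16#1 and was at 18.9 TPM under shUSP16#2. The deposited table has 1 value per gene, so the short and long isoforms of NEAT1 cannot be separated.

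CYTOR (ENSG00000222041, chr2:87454781-87636740, forward strand) had 125 TPM in the control, 91.5 TPM with shUSP16#1 and 113 TPM with shUSP16#2. Its log2 fold changes were -0.45 and -0.14, at percentiles 31.4 and 62.3 of all tested genes. MIR4435-2HG (chr2:111036776-111523376, reverse strand) is a near copy of it, and 16.0% of the 50-base words of CYTOR occur there. MIR4435-2HG was at 162, 156 and 194 TPM. Summed over the pair, the levels were 287, 248 and 308 TPM, log2 fold changes of -0.21 and 0.10. The sign under shUSP16#2 thus differed between CYTOR alone and the pair, and the split of reads between them is uncertain. AC133644.3, which overlaps CYTOR on the same strand, was at 13.7, 9 and 7.69 TPM.

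MIR22HG had 6.21 TPM in the control, 5.93 TPM with shUSP16#1 and 4.85 TPM with shUSP16#2. Its log2 fold changes of -0.06 and -0.30 lay close to the medians of all tested genes, at percentiles 57.9 and 53.6. WDR81 overlaps it on the opposite strand and was at 7.11, 7.37 and 8.33 TPM. Whether the counting used strand is not given in the sources used here. Of the 13 tested genes within 250 kb, 6 had lower values under both hairpins, where the share of all tested genes was 57.2%, and 5 had higher values. MIR17HG had 0.99 TPM in the control, 1.37 TPM with shUSP16#1 and 0.31 TPM with shUSP16#2, which is above the control in 1 hairpin library and below it in the other. No tested gene lay within 250 kb of it. At these levels the depth, which is unknown, limits what can be read from the differences.

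LINC-PINT (ENSG00000231721, reverse strand, chr7:130938963-131110176) had 0.45 TPM in the control, 0.52 TPM with shUSP16#1 and 0.44 TPM with shUSP16#2. A second GENCODE gene of the same name, ENSG00000226380, is listed in the table as AC016831.1 and was at 2.52, 3.25 and 2.09 TPM. AC016831.7, which overlaps LINC-PINT on the same strand, was at 6.51, 4.14 and 6.92 TPM, and 20.5% of the 50-base words of LINC-PINT occur in it. Both entries were thus above the one named LINC-PINT in every library, and how reads were divided among them is not known. MKLN1, whose gene overlaps LINC-PINT on the opposite strand, was at 8.4, 4.52 and 3.67 TPM.

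Length and base composition moved with the changes. Of the 7 members, MALAT1, NEAT1, TUG1, NORAD and CYTOR have a length of at least 5000 bases and under 45% GC, with 40.3% for MALAT1, 44.1% for NEAT1, 43.1% for TUG1, 41.6% for NORAD and 41.9% for CYTOR. PVT1 and MIR22HG are shorter and had 52.2% and 49.5% GC. The 1274 tested genes of this long and GC-poor kind had median log2 fold changes of -0.63 and -1.07, and 54.9% of them were called lower under shUSP16#2. Within this group MALAT1 lay at percentiles 52.7 and 4.63, TUG1 at 28.1 and 17.8, and NORAD at 21.4 and 6.59. NEAT1 lay at percentiles 98.7 and 97.3, and CYTOR at 67.3 and 95.0. The 48 long non-coding RNA genes of this kind had medians of -0.27 and -0.65, nearer 0 than the medians of -0.65 and -1.08 of the 1216 protein-coding genes. Among these 48, MALAT1, TUG1 and NORAD lay at percentiles 4.17, 14.6 and 8.33 under shUSP16#2 and NEAT1 at 97.9.

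With the GC trend over the 13296 tested genes of known GC content removed, the 2 log2 fold changes were -0.21 and -1.31 for MALAT1, -0.59 and -1.12 for TUG1 and -0.57 and -1.23 for NORAD. All 3 were past 2-fold from 0 under shUSP16#2, but these values keep the median of all tested genes, which was -0.37 on this scale. Set against that median, each of the 3 was less than 2-fold lower. The share of all tested genes past 2-fold under shUSP16#2 on this scale was not computed. CYTOR then had values of -0.12 and 0.30, so its sign turned under shUSP16#2, and NEAT1 had 0.78 and 0.37. With the length trend removed instead, the values under shUSP16#2 were -1.44 for MALAT1, -1.02 for TUG1 and -1.39 for NORAD, again past 2-fold, and those of CYTOR were -0.10 and 0.31. The values with the length trend removed keep the median of all tested genes as well. Removal of both trends together, or of the length trend and the median, was not tested.

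**Figure D4:**
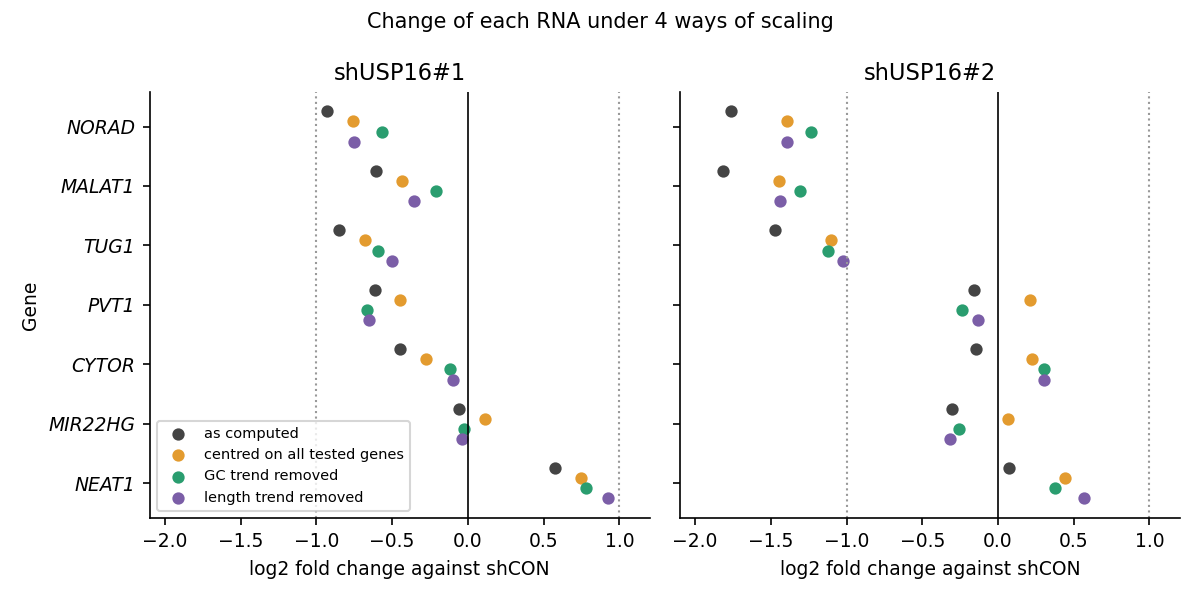
Log2 fold change against shCON for 7 RNAs under each hairpin, as computed on log2(TPM + 1) and after subtracting the median over all tested genes, removing the GC trend or removing the length trend; dotted lines mark 2-fold. Under shUSP16#2 all points of MALAT1, TUG1 and NORAD lie below -1, whereas those of CYTOR, PVT1 and MIR22HG fall on both sides of 0. Values with a trend removed keep the median of all tested genes.

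PVT1 (ENSG00000249859) lies on the forward strand of chromosome 8, 53.1 kb beyond MYC, which was the only tested gene within 250 kb. PVT1 had 66.9 TPM in the control, 43.3 TPM with shUSP16#1 and 59.8 TPM with shUSP16#2, changes of -0.62 and -0.16. MYC was at 238, 209 and 173 TPM, log2 fold changes of -0.19 and -0.46. The lowest library was therefore shUSP16#1 for PVT1 and shUSP16#2 for MYC. The level of PVT1 was 28.1% of that of MYC in the control, 20.7% with shUSP16#1 and 34.7% with shUSP16#2. PVT1 was also higher under shUSP16#2 than under shUSP16#1 by 0.46, at percentile 95.2 of the differences of all tested genes. Linear and circular forms of PVT1 cannot be told apart in a value per gene. Among MYC and its partners, 4 of 5 tested genes had lower values under both hairpins, as had 57.2% of all tested genes, with medians of -0.38 and -0.46 and none called under both. MXD1, which encodes a repressor that competes with MYC for MAX, was at 4.75, 3.08 and 1.1 TPM. MAX itself was at 97.5, 74.5 and 71.3 TPM. MNT, another MAX partner, was at 7.02, 7.32 and 7.71 TPM.

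Proteins that work with these RNAs were described from fixed lists, with all values on the log2(TPM + 1) scale. Their counts stand beside 57.2% of all tested genes and 60.3% of protein-coding genes with lower values under both hairpins, 4.6% of all tested genes called lower under both, and medians of -0.17 and -0.37 over all tested genes. All 10 tested paraspeckle proteins had lower values under both hairpins, with medians of -0.56 and -0.79, or -0.37 and -0.42 with the GC trend removed, while NEAT1 was not lower. SFPQ, an essential paraspeckle protein, was called lower under both hairpins, at 182, 81.3 and 72.8 TPM. The 8 nuclear speckle and RNA 3′ end genes around MALAT1 had medians of -0.57 and -0.79, or -0.79 and -0.90 with the GC trend removed. Of these 8 genes, 3 were called lower under both hairpins, where the share of all tested genes was 4.6%. SON, a core speckle protein, fell from 128 to 50.4 and 41.75 TPM, and the splicing factor SRSF1 from 130 to 55.9 and 47.9 TPM. The other was SRSF2, from the same family.

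All 4 NORAD partners were called lower under shUSP16#2 and 1 under both, with medians of -0.93 and -1.46. Of all tested genes 19.5% and 4.6% were called in these ways, and of the long and GC-poor genes 54.9% and 14.5%. RBMX, a nuclear RNA-binding protein, fell from 165 to 69.7 and 58.3 TPM. TOP1, a topoisomerase, was at 58.1, 29.7 and 20.9 TPM. PUM2, a Pumilio gene, is not picked by the rule for named genes and was added with its values known. It was at 14.6, 7.29 and 4.2 TPM with log2 fold changes of -0.91 and -1.58. With the GC trend removed the medians of the 4 partners were -0.61 and -1.03.

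For the miRNA host genes, the machinery and targets of miRNAs were listed. Of 12 processing and effector genes 10 were tested, 9 had lower values under both hairpins and 2 were called, against 57.2% and 4.6% of all tested genes. TNRC6A, a scaffold of miRNA silencing, fell from 8.26 to 3.18 and 2.13 TPM, and DICER1, which cuts miRNA precursors, from 4.76 to 1.56 and 1.62 TPM. Of 11 known targets of miR-17-92, 7 had lower values under both hairpins, 2 were called lower under both and none had higher values under both, with medians of -0.38 and -0.84. The 7 of 11 is a share near the 57.2% of all tested genes and 60.3% of protein-coding genes. E2F3, a cell cycle transcription factor, fell from 13.3 to 5.51 and 4.1 TPM, and THBS1, a secreted angiogenesis inhibitor, from 509 to 250.6 and 157 TPM.

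Other RNAs of the same kinds varied in both directions. Of all tested genes 57.2% had lower values under both hairpins, and of tested long non-coding RNA genes 41.0%. Among 17 other miRNA host genes 12 were tested, with 6 lower and 3 higher under both hairpins. Their medians were -0.21 and -0.67, and 0.03 and -0.26 with the GC trend removed, so that the sign turned under shUSP16#1. DLEU2, host of miR-15a and miR-16-1, fell from 7.54 to 2.28 and 2.21 TPM, and MIR31HG from 57.55 to 25.4 and 20.3 TPM. MIR210HG, host of the hypoxia-linked miR-210, rose from 2.98 to 9.55 and 12.1 TPM. MIR205HG was at 4.71, 14.5 and 8.97 TPM, past 2-fold under shUSP16#1 only. Of 36 other cancer-linked long non-coding RNAs 34 were in the table and 19 were tested, with 8 lower and 4 higher under both. The 8 of 19 is a share near the 41.0% of tested long non-coding RNA genes. The medians of -0.05 and -0.04 turned positive after centring, at 0.12 and 0.32, and with the GC trend removed, at 0.11 and 0.22. PCAT6, a prostate cancer-associated transcript, rose from 2.12 to 7.25 and 6.29 TPM, and LINC01133 from 3.67 to 8.61 and 10.3 TPM. LINC00467 was at 22.65, 6.26 and 12.03 TPM, and DLEU1 at 24.2, 17.1 and 10.8 TPM.

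**Figure D5:**
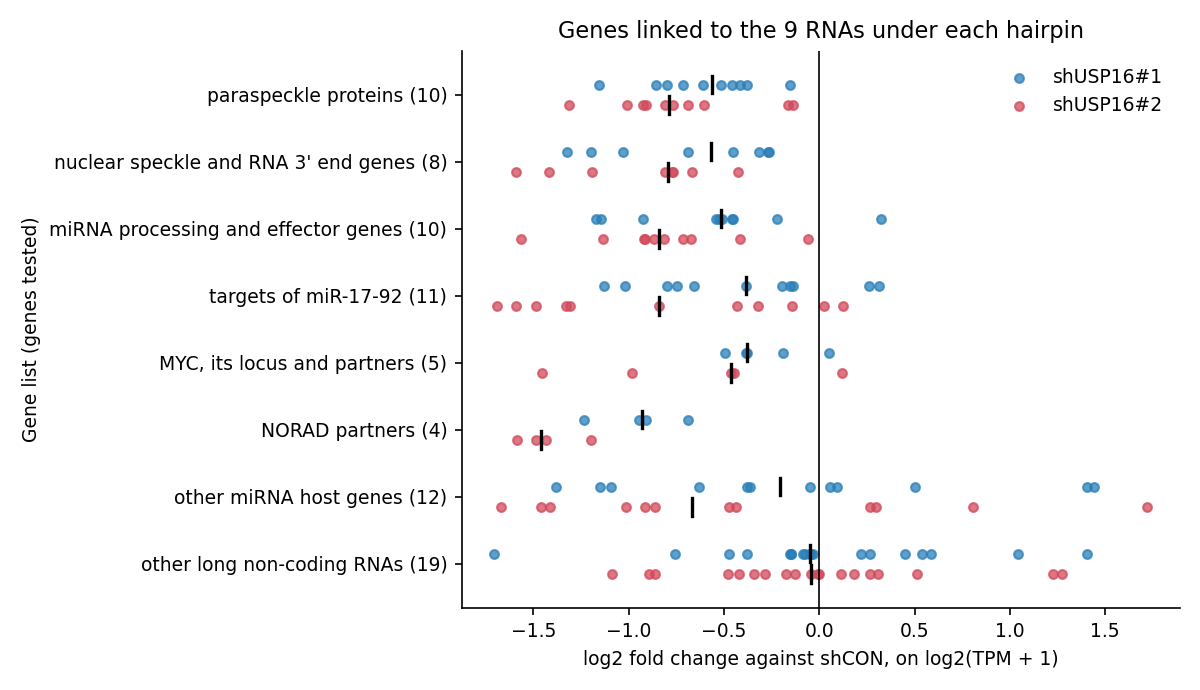
Log2 fold change against shCON for the tested genes of 8 lists, 1 point per gene and hairpin (blue, shUSP16#1; red, shUSP16#2), with black ticks at the medians and the number of tested genes in parentheses. The 10 paraspeckle proteins, 8 speckle genes and 4 NORAD partners lie to the left of 0 under both hairpins, and the 19 other long non-coding RNAs spread around medians of -0.05 and -0.04.

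Genes whose pair of log2 fold changes was most like that of a member were found by Euclidean distance over the 3 libraries, among the other 9300 genes that averaged 5 TPM or more. NORAD had 32 genes within a distance of 0.1, the nearest being NBN and STK38L. TUG1 had 82, with NAA25 and MTMR2 nearest. The pattern of MALAT1 was shared by 7 genes, with TIA1, an RNA-binding protein of stress granules, and MCL1, an apoptosis inhibitor, nearest. TIA1 was at 25.2, 16.3 and 6.3 TPM and MCL1 at 75.3, 48.1 and 20.8 TPM. PVT1 had 15 genes within this distance, with TTC7B and AK4 nearest, and CYTOR had 49, with NUDT21 and TUBA4A nearest. NEAT1 had 53, with PLSCR3 and KIAA1671 nearest, and MIR22HG had 251, with VAV2 and CINP nearest.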

How the data were processed

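Total RNA of PC3 cells was made into libraries with a TruSeq RNA kit and sequenced by Majorbio. The authors deposited TPM values with 2 decimals for each gene, from the Majorbio Cloud Platform, beside a gene length in bases as another deposited column. The submitters' processing notes name CASAVA, HISAT2 and the build hg19. The quantification tool, the annotation and whether poly(A) RNA was selected are not given in the sources used here. Of the deposited identifiers, 58516 matched GENCODE release 29 (GRCh38), which supplied coordinates, gene types and GC content of the longest transcript. For 7 of the 9 genes the deposited length equals that transcript. The table repeats its 3 TPM columns under the same names, and the repeats were not used.

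For a repeated name the entry with the highest mean TPM was kept (1211 left out). Log2(TPM + 1) was compared with shCON for the 13637 genes averaging 1 TPM or more. With 1 library per condition there was no test. Other settings tried were subtracting the overall median, a pseudocount of 0.1, removal of the GC or length trend (medians of 50 equal bins), no minimum, a minimum of 5 TPM and each hairpin alone. After removal of a trend the overall median was added back. The 9 genes, the lists and these settings were chosen with earlier results of these data known. Named genes were the 9 RNAs, USP16, MYC, the 2 largest decreases and 2 largest increases per list by the smaller of both changes, the 2 nearest neighbours and the 2 most alike in pattern. Some genes that this rule picks are not reported here. The procedure was tested on simulated data. Tables were handled in Python 3.11.15 with pandas 2.3.3 and numpy 2.4.6, and plots drawn with matplotlib 3.10.9.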

Additional observations from a re-analysis of the deposited data

How the results depend on the processing

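The count of 0 members called higher was the same under every alternative run. The count of 0 called lower under both hairpins was the same under every run except that without shUSP16#1. With a single hairpin counted, between 0 and 3 members were called lower. The 3 came without shUSP16#1, and using 1 hairpin relaxes the condition by construction. The median over members of the mean of both hairpins was -0.39. It was -0.12 after centring on the overall median, and ran from -0.60 to -0.30 with a single hairpin. The means of MALAT1, NEAT1, PVT1, TUG1 and NORAD kept their sign under all 8 alternatives. That of MIR22HG kept it under 7 and that of CYTOR under 6, and their values ran up to 0.09 and 0.10. Some of these outcomes were fixed in advance. Changing the minimum TPM cannot alter the value of a gene, and a pseudocount cannot turn the sign of a change under a single hairpin. Tested genes called lower under both hairpins numbered 627, and 1098 with a pseudocount of 0.1. They numbered 273 after centring or with the GC trend removed. Genes called higher numbered 155, and 288 with a pseudocount of 0.1, 341 after centring, 101 with the GC trend removed and 96 with a minimum of 5 TPM. No paired analysis was possible because every group is a single library. The depth is unknown, which limits MIR17HG and LINC-PINT most.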
